A study of Homo sapiens with 4 samples.

Results

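The Polycomb group genes EZH1, EZH2, EED, SUZ12, JARID2, BMI1, RING1, RNF2, CBX2 and CBX8 were chosen by name, as subunits of the Polycomb repressive complexes PRC2 and PRC1, by a rule that uses no expression value. The choice was made with earlier results of these data known. All 10 were among the 39323 genes in the tables and all 10 passed a filter of 1 TPM on the mean level, which left 12985 genes for comparison. RNA was sequenced from RD and JR1, established cell lines of a muscle-lineage tumour, fusion-negative rhabdomyosarcoma. In each line, cells infected with a lentivirus carrying an shRNA against SKP2 (hairpin shSKP2.2, genotype SKP2 knockdown, here shSKP2) were compared with cells infected with a non-targeting shRNA (shSCR, genotype WT in the labels). SKP2 is the substrate receptor of an SCF ubiquitin ligase, and the series asked what its depletion does to myogenic differentiation, senescence and tumour growth. All 4 libraries carry an integrated pLKO.1 hairpin vector, and cells without a vector were not among them. There was 1 library per line and shRNA, so the spread between cultures is unknown and each difference within a line compares single libraries, with no test. The shRNA effect shared by both lines was fitted once, over all genes, with line as a block.

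Polycomb proteins keep developmental genes silent. PRC2 methylates histone H3 at lysine 27 through EZH2 or its paralog EZH1, which need the partners EED and SUZ12, and the accessory subunit JARID2 helps to bring the complex to its targets. PRC1 is a ubiquitin ligase for histone H2A with RING1 or RNF2 as the catalytic subunit, a PCGF protein such as BMI1 as its partner, and, in its canonical form, a CBX protein that reads the methyl mark left by PRC2. In muscle precursors PRC2 is known to sit on genes of late differentiation, and EZH2 is known to decline as myoblasts differentiate.

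The promoters of the members are shown first for the genes whose values carry the comparisons below, the PRC2 catalytic pair, JARID2 and BMI1. Sequences were taken from RefSeq (GRCh38.p14), in which 8 of the 10 members were matched. CBX2 and CBX8 were not matched. Each run holds the 250 bases before the transcription start and the first 30 bases after it, 5′ to 3′ on the strand of the gene. The first RefSeq start is shown where a gene has several. Capitals mark an E2F word (TTTCCCGC, TTTCGCGC, TTTGCCGC or TTTGGCGC) or the E-box CACGTG, searched on both strands, and no such words overlapped.
EZH2 (chr7:148884262-148884541, minus strand): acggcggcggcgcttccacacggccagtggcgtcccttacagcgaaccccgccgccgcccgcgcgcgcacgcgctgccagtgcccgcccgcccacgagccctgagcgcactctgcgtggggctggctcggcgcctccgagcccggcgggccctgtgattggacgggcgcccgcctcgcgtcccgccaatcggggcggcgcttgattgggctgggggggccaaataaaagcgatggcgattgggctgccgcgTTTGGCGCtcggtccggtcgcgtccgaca
EZH1 (chr17:42745011-42745290, minus strand): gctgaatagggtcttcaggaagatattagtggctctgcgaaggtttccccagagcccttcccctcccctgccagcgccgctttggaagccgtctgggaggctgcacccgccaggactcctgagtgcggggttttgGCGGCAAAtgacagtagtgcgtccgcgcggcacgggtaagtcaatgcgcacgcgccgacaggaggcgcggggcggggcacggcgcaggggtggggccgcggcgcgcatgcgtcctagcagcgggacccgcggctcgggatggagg
JARID2 (chr6:15245819-15246098, plus strand): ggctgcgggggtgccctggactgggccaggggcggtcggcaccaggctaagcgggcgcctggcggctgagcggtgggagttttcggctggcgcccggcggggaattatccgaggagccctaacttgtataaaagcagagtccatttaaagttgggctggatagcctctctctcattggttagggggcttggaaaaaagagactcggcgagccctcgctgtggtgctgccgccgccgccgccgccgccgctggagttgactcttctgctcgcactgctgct
BMI1 (chr10:22320849-22321128, plus strand): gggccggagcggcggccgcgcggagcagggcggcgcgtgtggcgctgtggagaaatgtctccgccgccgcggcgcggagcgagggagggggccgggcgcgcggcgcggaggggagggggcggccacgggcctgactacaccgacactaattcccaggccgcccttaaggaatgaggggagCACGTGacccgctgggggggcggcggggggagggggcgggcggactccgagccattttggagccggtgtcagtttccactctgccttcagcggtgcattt

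E2F factors are activators of S phase genes and are known to drive EZH2 and EED in dividing cells. Counted from the start as base 1, an E2F word began at position 2 in EZH2, -115 in EZH1 and -189 in SUZ12, and such a word is found in 3.31% of the 35116 RefSeq promoter windows of 300 bases. No other matched member held an E2F word, EED included, and neither did the other RefSeq window of EZH2. The E-box CACGTG, bound by MYC with MAX among others, began at position -70 in BMI1 and is found in 7.26% of windows. The E-box CAGCTG, a form bound by MYOD, was present at position 30 in RNF2 and in 17.9% of all windows. These matches describe the letters of the windows, and binding was not measured.

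Within each line, shSKP2 was divided by shSCR after 1 was added to every TPM, and the log2 of this ratio is the change given below. The added 1 pulls low genes toward 0. A gene was counted as changed when this value reached 1 in either direction, a change of 2-fold in TPM + 1. Of all TPM, 50.1% in RD shSCR, 62.3% in RD shSKP2, 57.1% in JR1 shSCR and 64.9% in JR1 shSKP2 belonged to short structural RNA genes such as RN7SL1, so less was left for other genes with shSKP2. The overall median, taken over the 12985 genes, was a log2 change of -0.27 for RD and -0.21 for JR1. For this reason each change is also stated relative to the overall median, or after structural RNA genes were taken out and TPM rescaled. Over the 14735 genes that then passed the filter, the median was 0.10 for RD and 0.03 for JR1. The targeted gene SKP2 was at 92.84 and 7.40 TPM (log2 -3.48) in RD and at 46.47 and 2.72 TPM (-3.67) in JR1, lower in both libraries labelled knockdown. The lineage markers MYOD1, MYOG, DES, CHRNA1 and PAX7 were present in every library at 1.16 to 424.83 TPM, while MYF5 was listed at 0 in all 4 and markers of leukocytes, epithelium, endothelium and hepatocytes reached at most 0.16 TPM.

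**Figure D1:**
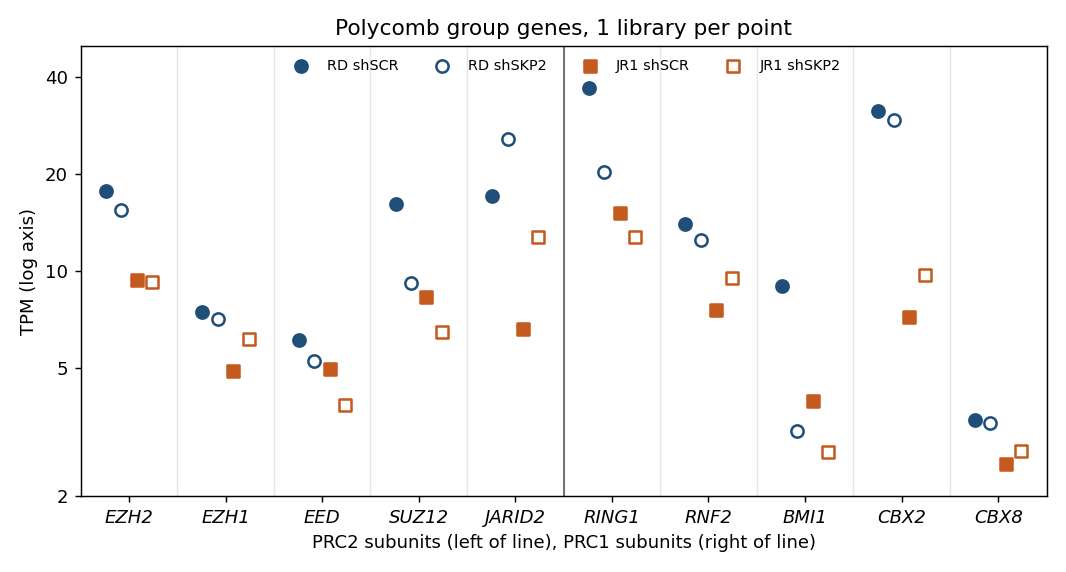
TPM (log axis) of the 10 Polycomb group genes, 1 point per library, with RD as circles, JR1 as squares, shSCR filled and shSKP2 open. JARID2 is higher with shSKP2 in both lines, BMI1 in RD goes from 8.99 to 3.18 TPM, and every member is higher in RD shSCR than in JR1 shSCR. So are 9268 of the 12985 tested genes.

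No member of PRC2 or PRC1 changed by the limit of 1 in JR1, and in RD BMI1 alone did, with a fall. Of all tested genes, 1.08% rose and 7.37% fell by the limit in RD, and 1.78% rose and 9.05% fell in JR1, so 1 fall among 10 members in RD lay near the share of all genes. Over the members, the median log2 change was -0.17 for RD (0.10 relative to the overall median) and 0.04 for JR1 (0.25 relative to it). The members did not move together. As deposited, 9738 of the 12985 tested genes were lower with shSKP2 in RD and 8943 in JR1, beside 9 and 5 of the members. Of the 10, 1 (JARID2) was higher in both lines and 5 were lower in both. Relative to the overall median, 6 were above 0 in both lines (EZH1, EZH2, JARID2, RNF2, CBX2 and CBX8), 3 were below it in both (SUZ12, BMI1 and RING1) and EED lay on either side. By construction, 6492 of the 12985 genes lay above that median in RD and 6491 in JR1. Of 37 other Polycomb genes and antagonists described below, 4 were higher and 17 lower in both lines as deposited. Relative to the median, 17 of them were above and 11 below in both. The share of all tested genes on the same side in both lines was not counted, so the joint counts cannot be set against it. At a lower limit of 1.5-fold, 3 members were lower in RD (SUZ12, RING1 and BMI1) and 0 higher, where 23.2% of all tested genes were lower and 3.20% higher. In JR1 0 members were lower and 1, JARID2, was higher, where 23.4% of genes were lower and 5.31% higher. JARID2 stood at percentile 96.5 of the 12985 genes in RD and 97.4 in JR1, while BMI1 stood at percentile 3.64 in RD and 34.9 in JR1.

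**Figure D2:**
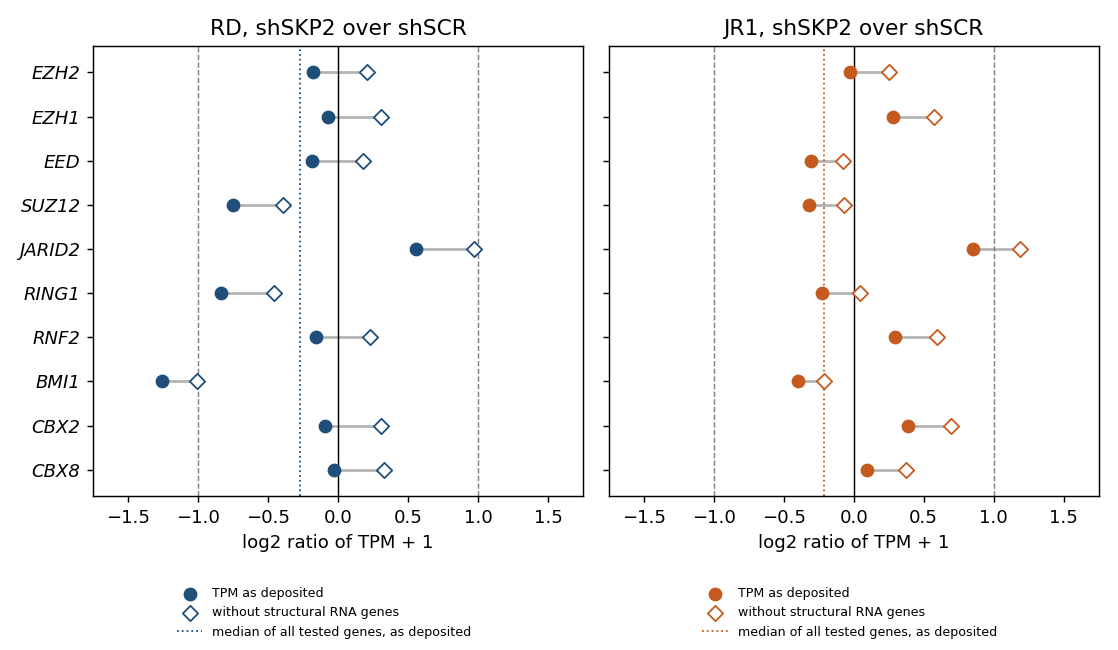
Log2 ratio of TPM + 1, shSKP2 over shSCR, of each member in RD (left) and JR1 (right), with filled circles for TPM as deposited and open diamonds after removal of short structural RNA genes. Dashed lines mark the limit of 1 and the dotted line the median of all tested genes; JARID2 lies to the right of 0 and SUZ12 and BMI1 to the left on both scales and in both lines.

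The fit over both lines (limma on log2(TPM + 1), line as a block, 1 residual degree of freedom per gene, adjusted over all tested genes) treats RD and JR1 as the pairs, so its error is the disagreement between the lines, moderated over genes, and not that of repeated cultures. As deposited it called 3 members at an adjusted p of 0.05, where 3.84% of all tested genes were called higher and 26.6% lower. JARID2 was higher, with a mean log2 change of 0.71 ± 0.14 (SE, limma adjusted p = 0.014), and higher in both lines. BMI1 (-0.83 ± 0.23, limma adjusted p = 0.036) and SUZ12 (-0.54 ± 0.16, limma adjusted p = 0.045) were lower, each in both lines.

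Without short structural RNA genes, where 11.0% of genes were called higher and 10.4% lower, JARID2 was still called (1.08 ± 0.14, limma adjusted p = 0.0042). BMI1 (-0.61 ± 0.23) and SUZ12 (-0.23 ± 0.15) no longer passed, with limma adjusted p = 0.10 and 0.32. The other 7 members were called on neither scale.

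EZH2, the main methyltransferase of PRC2 in dividing cells, lies on chromosome 7 from base 148807374 to base 148884344. Its level was 17.69 TPM in RD shSCR and 15.49 TPM in RD shSKP2. In JR1 it was 9.40 and 9.23 TPM. The shRNAs thus differed little beside the distance between the lines. On the log2 scale the difference for EZH2 was -0.18 (RD) and -0.02 (JR1) as deposited, but 0.09 and 0.19 relative to the overall median, so its sign depended on the scale. EZH1, the paralog that dominates in resting and differentiated tissue, lies on chromosome 17 from base 42700275 to base 42745078. It was at 7.48 and 7.08 TPM in RD, and at 4.91 and 6.17 TPM in JR1 (shSCR, then shSKP2). On the log2 scale EZH1 stood at -0.07 in RD, a sign that turned to 0.20 relative to the overall median, and at 0.28 in JR1, or 0.49 relative to it.

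The share of EZH2 in the summed TPM of the pair does not depend on how a library is scaled. It was 70.3% in RD shSCR and 68.6% in RD shSKP2, and 65.7% in JR1 shSCR and 59.9% in JR1 shSKP2. EZH2 was the more abundant paralog in every library and its share was lower with shSKP2 in both lines.

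Proliferation markers were read beside EZH2. As bulk RNA was measured, fewer cells with a transcript and less of it per cell cannot be told apart. All 12 of them (MKI67, TOP2A, CCNB1, CCNA2, CDK1, AURKA, PCNA, MCM2, MCM3, MCM4, MCM5 and MCM6) were lower with shSKP2 in both lines, also relative to the overall median, with 2 past the limit in RD and 4 in JR1. Their summed level was 600.9 TPM in RD shSCR and 351 TPM in RD shSKP2, and 255 and 143 TPM in JR1. The median log2 change of the list was -0.81 in RD and -0.86 in JR1, against -0.18 and -0.02 for EZH2. CDK1 had the largest log2 difference of the list in JR1 (-1.46) and MCM5 in RD (-1.32), while MCM2 had the smallest in RD (-0.46) and in JR1 (-0.42). The part of cell division in the values of the members was not tested.

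EED, the subunit that binds methylated H3 and stimulates the enzyme, lies on chromosome 11 from base 86244753 to base 86285420. It was at 6.12 and 5.27 TPM in RD and at 4.97 and 3.83 TPM in JR1. These are log2 values of -0.18 (RD) and -0.31 (JR1), or 0.09 and -0.09 relative to the overall median, so EED stayed near the middle of all genes. SUZ12, the scaffold of PRC2, lies on chromosome 17 from base 31937007 to base 32001040. In RD it measured 16.21 TPM with shSCR against 9.21 TPM with shSKP2 (log2 -0.75), and in JR1 8.32 against 6.47 TPM (-0.32). Relative to the overall median SUZ12 stood at -0.48 and -0.11. The partial copy SUZ12P1 was listed at 2.30 to 3.42 TPM, and the division of reads between it and SUZ12 is uncertain.

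JARID2 lies on chromosome 6 from base 15245975 to base 15522042. The RD libraries held 17.10 TPM (shSCR) and 25.65 TPM (shSKP2), and the JR1 libraries 6.59 and 12.74 TPM. JARID2 was the member with the highest value in each line, 0.56 on the log2 scale for RD and 0.86 for JR1, both under the limit of 1. Relative to the overall median they were 0.83 and 1.07, and without short structural RNA genes 0.97 and 1.19, so the limit was reached in JR1 on these scales. The ratio of JARID2 to EZH2 within a library, chosen after the values were seen, went from 0.967 to 1.66 in RD and from 0.701 to 1.38 in JR1. JARID2-AS1, annotated within JARID2, was listed at 0.20 and 0.73 TPM in RD and at 0 in both JR1 libraries. The libraries were directional, but whether counting used the strand is not given in the sources used here.

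RING1 and RNF2 are the ubiquitin ligases of PRC1. RING1, on chromosome 6 from base 33208500 to base 33212716, was the highest member in both control libraries, at 37.02 TPM in RD shSCR and 15.11 TPM in JR1 shSCR. With shSKP2 it was at 20.25 TPM in RD (log2 -0.84) and 12.75 TPM in JR1 (-0.23), which is -0.57 and -0.01 relative to the overall median and, in JR1, 0.04 without structural RNA genes. RNF2, on chromosome 1 from base 185045430 to base 185102603, was at 14.05 and 12.49 TPM in RD and at 7.55 and 9.50 TPM in JR1. The log2 values were -0.16 and 0.30 as deposited, and relative to the overall median 0.11 and 0.51, so the sign in RD turned. The share of RNF2 in the summed TPM of both ligases was 27.5% in RD shSCR and 38.1% in RD shSKP2, and 33.3% and 42.7% in JR1. RING1 was the more abundant of the pair in every library, by a smaller margin with shSKP2.

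BMI1, also called PCGF4, is the PRC1 partner known for its repression of the CDKN2A locus and its part in stem cell renewal. It lies on chromosome 10 from base 22321099 to base 22331484. In RD it fell from 8.99 TPM with shSCR to 3.18 TPM with shSKP2 (log2 -1.26), while JR1 had 3.95 and 2.75 TPM (-0.40). With shSKP2 it was the lowest member in both lines, just under CBX8. The value in RD was -0.99 relative to the overall median, just short of the limit, and -1.01 without short structural RNA genes.

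The readthrough gene COMMD3-BMI1 spans all of BMI1, from base 22316388 to base 22331484, and reads in shared exons are divided between both genes by the estimate. It was listed at 0 TPM in RD shSCR, 0.78 TPM in RD shSKP2, 0.84 TPM in JR1 shSCR and 0 TPM in JR1 shSKP2. It was thus above 0 in the knockdown of RD but in the control of JR1. BMI1 and COMMD3-BMI1 together had 8.99 and 3.96 TPM in RD (-1.01), just past the limit, and 4.79 and 2.75 TPM in JR1 (-0.63). The lines thus lay closer together for the sum than for BMI1 alone. COMMD3, the gene upstream, was at 10.75 and 10.95 TPM in RD and at 5.94 and 13.43 TPM in JR1, a rise of 1.06 in JR1.

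The PCGF proteins define the variants of PRC1, and BMI1 was a minor member of the family. Its share of the summed TPM of PCGF1, PCGF2, PCGF3, BMI1, PCGF5 and PCGF6 was 12.1% in RD shSCR and 6.04% in RD shSKP2, and 7.66% and 6.39% in JR1. With the readthrough gene added to BMI1 these shares were 12.1%, 7.41%, 9.14% and 6.39%. PCGF5 held the largest share in both control libraries, 28.0% in RD and 28.4% in JR1, and 22.0% and 17.3% with shSKP2. PCGF6, a subunit of a variant PRC1 with MGA and E2F6, held the largest share in JR1 shSKP2, 21.2%.

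CBX2 and CBX8 are neighbours on chromosome 17, CBX2 at bases 79776254 to 79787983 and CBX8 at bases 79792132 to 79797077, with 4148 bases between them. CBX2 was at 31.38 and 29.38 TPM in RD and at 7.20 and 9.74 TPM in JR1. On the log2 scale this was -0.09 for RD, which turned to 0.18 relative to the overall median, and 0.39 for JR1, or 0.60 relative to it. CBX8 was the lowest member in both control libraries, at 3.46 and 3.37 TPM in RD and at 2.52 and 2.77 TPM in JR1. Its log2 values, -0.03 for RD and 0.10 for JR1, became 0.24 and 0.31 relative to the overall median. CBX2 thus stood at 9.07 times the level of its neighbour in RD shSCR and at 8.72 times in RD shSKP2, and at 2.86 and 3.52 times in JR1.

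Shares were taken over the summed TPM of CBX2, CBX6, CBX7 and CBX8. Of these 4 genes CBX6 held the largest share in every library, 54.8% to 85.7%. The share of CBX2 was 32.1% in RD shSCR and 38.9% in RD shSKP2, and 9.77% and 18.1% in JR1. CBX8 held 3.54% and 4.46% in RD and 3.42% and 5.15% in JR1, and CBX7 at most 2.05%. The shares of both CBX2 and CBX8 were higher with shSKP2 in each line. CBX6 itself was lower with shSKP2, at 61.30 and 41.40 TPM in RD and at 63.13 and 40.13 TPM in JR1. In RD the TPM of CBX2 and CBX8 as deposited were slightly lower with shSKP2, so their larger shares there are not rises in TPM.

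The rest of the machinery was read from a list of 39 genes, of which 37 passed the filter. EZHIP, an inhibitor of PRC2, was listed at 0 TPM in every library, and ASXL3 reached at most 0.09 TPM. In RD 1 of the 37 rose and 3 fell by the limit, beside 1.08% and 7.37% of all tested genes, and in JR1 0 rose and 1 fell, beside 1.78% and 9.05%. The counts thus lay near the shares of all genes. The fit over both lines called 3 of the 37 higher (KDM6B, MTF2 and LCOR) and 8 lower as deposited, and 4 and 3 without short structural RNA genes. Of all tested genes it called 3.84% higher and 26.6% lower as deposited, and 11.0% and 10.4% without them. RBBP7, PHC1 and PCGF5 were called lower on both scales, and KDM6B, MTF2 and LCOR higher on both. Over the 37 the median log2 change was -0.29 for RD and -0.03 for JR1, or -0.016 and 0.18 relative to the overall median.

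Among the 8 other PRC2 genes tested, RBBP7, a histone-binding subunit, had the lowest value in each line. It fell in RD, from 47.34 to 19.07 TPM (-1.27), and in JR1, from 22.94 to 10.82 TPM (-1.02). Relative to the overall median these were -0.998 and -0.80, so neither was past the limit on that scale. Its paralog RBBP4 was at 44.34 and 35.97 TPM in RD and at 32.86 and 28.87 TPM in JR1. MTF2, which guides PRC2 to CpG islands, had the highest value in RD (0.45) and LCOR, whose locus encodes the PRC2 partner PALI1, in JR1 (0.56). The level of MTF2 was 12.62 and 17.61 TPM in RD, 10.96 and 16.62 TPM in JR1, and that of LCOR 13.46 and 18.35 TPM in RD, 10.94 and 16.63 TPM in JR1. PHF19, a relative of MTF2, had 61.61 and 40.12 TPM in RD, 23.21 and 12.94 TPM in JR1. Of the genes that encode PRC2 accessory proteins, JARID2, MTF2, LCOR and PHF1 stood above the overall median in both lines and PHF19 below it in both. AEBP2 was above it in JR1 and EPOP in RD. The LCOR value is for the whole gene, and PALI1 was not measured apart.

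Of the 22 other PRC1 genes, 2 fell in RD. BCOR, a scaffold of variant PRC1, had 5.27 and 1.36 TPM in RD (-1.41) and 1.36 and 0.94 TPM in JR1 (-0.28). PHC1, a subunit that lets canonical PRC1 polymerise, had 19.99 and 7.08 TPM in RD (-1.38) and 12.03 and 5.54 TPM in JR1 (-0.99, short of the limit). The share of PHC1 in the summed TPM of PHC1, PHC2 and PHC3 was 11.3% in RD shSCR, 11.1% in JR1 shSCR and 5.17% and 5.20% with shSKP2. The highest values were those of PCGF1 in RD (0.17) and AUTS2 in JR1, from 2.52 to 5.97 TPM (0.99). AUTS2 went from 10.68 to 8.34 TPM in RD (-0.32), opposite in sign to JR1 as deposited, but without short structural RNA genes it was at 0.045 in RD and 1.39 in JR1.

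Enzymes that act against Polycomb were led by KDM6B, a demethylase of lysine 27 on H3. KDM6B rose from 13.21 to 28.39 TPM in RD (1.05) and was at 14.89 and 30.39 TPM in JR1 (0.98, and 1.20 relative to the overall median). In order of change it stood at percentile 99.0 of the 12985 genes in RD and 98.1 in JR1. The other demethylase KDM6A was at 5.75 to 7.84 TPM in all libraries, with log2 changes of -0.15 in RD and -0.03 in JR1. EP300, an acetyltransferase for the same residue, had the lowest value of this group in RD (-0.24). In the deubiquitinase complex that removes the PRC1 mark, BAP1 was highest in both lines (-0.10 and 0.06), ASXL2 lowest in RD (-0.40) and ASXL1 lowest in JR1 (-0.12).

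**Figure D3:**
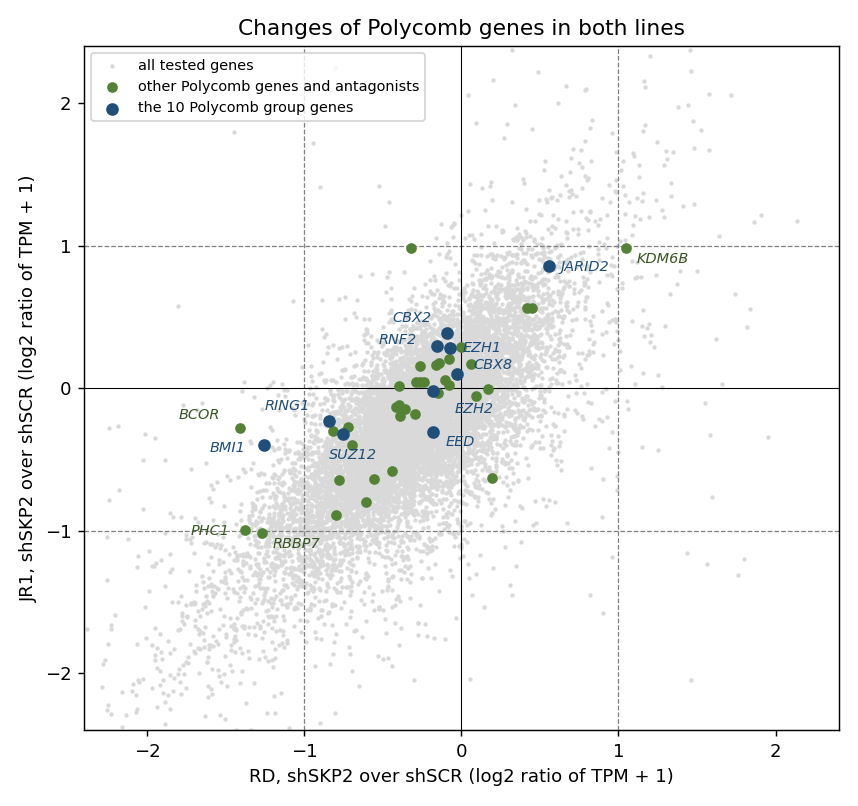
Log2 ratio of TPM + 1, shSKP2 over shSCR, in RD (x) and JR1 (y), for the 10 members (blue), 37 other Polycomb genes and antagonists (green) and all tested genes (grey, points beyond the axes not drawn). JARID2 and KDM6B lie at the upper right, BMI1, BCOR, PHC1 and RBBP7 at the left, and dashed lines mark the limit of 1.

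Genes known as targets of EZH2, JARID2 or BMI1 in other settings, 6 in all, were read beside the members. The list was chosen with earlier results of these data known, and the authors had reported MYL1 and MYOG as induced in RD. The part of Polycomb in the values of these genes was not tested. CKM, muscle creatine kinase, had 2.92 and 6.65 TPM in RD (0.96, and 1.23 relative to the overall median) and rose in JR1, from 5.01 to 36.71 TPM (2.65). MYL1, a fast muscle myosin light chain, rose by 3.89 in RD and 3.41 in JR1 on the log2 scale, and MYOG, a myogenic regulator, had values of 0.87 and 0.98. CDKN2A, the cell cycle inhibitor locus repressed by BMI1 in many cells, was at 34.10 and 28.79 TPM in RD and at 96.80 and 71.93 TPM in JR1. CDKN2B beside it was at 2.79 and 2.38 TPM in RD and at 10.13 and 7.97 TPM in JR1. CDKN1C, another cell cycle inhibitor, had values of -0.46 in RD and 0.53 in JR1. These are RNA values, and the authors reported its protein as increased in both lines after SKP2 silencing. Relative to the overall median, CDKN2A stood at 0.03 and -0.21 and CDKN2B at 0.10 and -0.10, so neither was past the limit in either line. The lineage markers other than MYF5 were summed as well, to 365 TPM in RD shSCR and 513 TPM in RD shSKP2, and to 495 and 700.2 TPM in JR1, with CHRNA1, a receptor subunit of muscle, at 196.34 and 313.84 TPM in RD and at 284.19 and 424.83 TPM in JR1 as the largest part. Of the 5, 1 was lower in RD and 2 in JR1. PAX7, the satellite cell factor, fell in both lines, 10.75 against 3.36 TPM for RD and 4.84 against 1.16 TPM for JR1, and DES, muscle desmin, was at 51.31 and 35.97 TPM in JR1 (-0.50). Histone marks at these genes were not analysed here.

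Between the control libraries, every member was higher in RD than in JR1. So were 35 of the 37 other Polycomb genes and 9268 of the 12985 tested genes. Among the members CBX2 differed most, 31.38 against 7.20 TPM, a log2 difference of 1.98. JARID2 (1.25), RING1 (1.24) and BMI1 (1.01) also passed the limit, so 4 of 10 members did, where 6.50% of all tested genes were higher in RD by the limit and 3.44% higher in JR1. The others were SUZ12 (0.88), EZH2 (0.85), RNF2 (0.82), EZH1 (0.52), CBX8 (0.34) and EED (0.25). The median over the members was 0.87, and that over all tested genes 0.23. Relative to the latter BMI1 was at 0.78, under the limit, and EED at 0.02. Without short structural RNA genes, RMRP, RPPH1 and transfer RNA genes, EED turned to -0.0047, and 2 members passed the limit. At 1.5-fold, 7 members were higher in RD and 0 in JR1, beside 20.4% and 7.02% of all tested genes.

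The proliferation markers were also all higher in RD shSCR, by 0.86 to 1.74, and 7 of the 12 passed the limit. With the readthrough gene added, BMI1 differed by 0.79, under the limit, which left 3 members past it. The RD and JR1 control libraries also enter the comparisons of shRNAs above, so these values are not independent of those. With shSKP2, CBX2 was still the member that differed most between the lines (29.38 against 9.74 TPM), followed by JARID2 (0.96), while BMI1 differed by 0.16.

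In level, which TPM make comparable between genes since they are per length, the order in RD shSCR was RING1, CBX2, EZH2, JARID2, SUZ12, RNF2, BMI1, EZH1, EED and CBX8. In JR1 shSCR it was RING1, EZH2, SUZ12, RNF2, CBX2, JARID2, EED, EZH1, BMI1 and CBX8. With shSKP2 JARID2 was second in both lines, behind CBX2 in RD and behind RING1 in JR1. Neighbours in these orders cannot be told apart, since the spread between libraries of a group is unknown. The summed TPM of the 10 members was 159.5 in RD shSCR, 131.4 in RD shSKP2, 70.5 in JR1 shSCR and 76.0 in JR1 shSKP2. As a share of the TPM outside structural RNA genes it was 0.0320% and 0.0348% in RD and 0.0164% and 0.0216% in JR1, so the order of the RD libraries turned on that scale.

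The pattern of EZH2 over the 4 libraries was nearest to that of VPS37D, GOLGA2P10 and STAP2, by the Euclidean distance of log2(TPM + 1) centred on each gene's mean (0.028, 0.037 and 0.038). That of JARID2 was nearest to LOC105372709, RNF165 and TNFRSF10D (0.10, 0.11 and 0.15), and that of BMI1 to DENND2A, KLF13 and CHCHD5 (0.079, 0.11 and 0.12). These are likenesses over 4 libraries among 12985 tested genes less the short structural RNAs.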

How the data were processed

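Gene expression in RD and JR1, with shSCR or shSKP2, came from 4 poly-A selected, directional libraries, 1 per line and shRNA. The authors aligned read pairs to GRCh38 with STAR 2.7.9a and deposited TPM per gene from RSEM 1.3.2, which sum to about 1000000 per library and are given to 2 decimals. TPM keep no read counts, so depth and counting error are unknown. TPM were used as deposited with a pseudocount of 1, and 12985 genes whose mean reached 1 TPM were kept. With 1 library per group no test was run within a line, and a log2 change of 1 in either direction served as the limit. Alternatives were a pseudocount of 0.1, centring on the overall median, removal of 656 short structural RNA genes by symbol (or 1074 genes with RMRP, RPPH1 and transfer RNA genes) with rescaling, no filter above 0 TPM, a mean of at least 5 TPM, a limit of 1.5-fold, and BMI1 summed with its readthrough gene.

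The members and gene lists were chosen with earlier results of these data known. The rule for named genes took all members, and of each other Polycomb list the genes past the limit and the highest and lowest per line, the described targets, the readthrough genes, SKP2, and the 3 genes nearest in pattern to EZH2, JARID2 and BMI1. Other genes named, among them RBBP4, PHF19, KDM6A, CBX6, CBX7, PCGF5 and PCGF6, were added for their family or list, and ratios between genes were chosen after their values were seen. A gene planned for the shares is not reported here, and each share is over the genes named with it. A fit of both lines, chosen after seeing the data, used limma 3.58.1 with a mean trend and Benjamini-Hochberg adjustment over all tested genes, 14735 without structural RNA genes. The calculations were tested on simulated data. Scripts ran in Python 3.11.15 (pandas 2.3.3, numpy 2.4.6, matplotlib 3.10.9).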

Additional observations from a re-analysis of the deposited data

Results flagged for a closer look

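4 members had log2 changes of opposite sign in the lines with the TPM as deposited, and the difference between the lines was not tested, since each rests on 1 library per condition. Of the 12985 tested genes, 3200 were higher with shSKP2 in RD and 4011 in JR1. The share of all tested genes with opposite signs was not counted, so these 4 cannot be set against it. The change in RD minus that in JR1 was -0.48 for CBX2, -0.45 for RNF2, -0.35 for EZH1 and -0.13 for CBX8. In each of them the value in RD was between -0.16 and -0.03 and the value in JR1 between 0.10 and 0.39, all under the limit of 1. Relative to the overall median, and after removal of short structural RNA genes, all 4 were above 0 in both lines.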

How the results depend on the processing

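The labels carry no replicate numbers, and the pairing used was that of shSKP2 with shSCR within a line. This fit with line as a block was added after seeing the data. Without short structural RNA genes it called 0 members and 3 other Polycomb genes lower, against 2 and 8 as deposited. Of all tested genes it called 10.4% lower without them and 26.6% as deposited. With a pseudocount of 0.1 TPM, 2 other Polycomb genes were higher and 2 lower by the limit in JR1, against 0 and 1 as reported. Centred on the overall median, 0 members were lower by the limit in RD and 1, JARID2, was higher in JR1, while 2 other Polycomb genes were higher and 0 lower in JR1. On this scale the members had a median of 0.10 in RD, 0.25 in JR1 and 0.63 between the control libraries of RD and JR1, and the other Polycomb genes -0.016 in RD and 0.18 in JR1. Without short structural RNA genes the same medians were 0.22, 0.31 and 0.69 for the members and 0.10 and 0.24 for the others, with 1 member higher in JR1 and 2 others higher and 0 lower there. With RMRP, RPPH1 and transfer RNA genes also removed, they were 0.24, 0.29 and 0.61, and 0.12 and 0.22, with 1 member higher, 2 others higher and 0 others lower in JR1, and 2 members higher in RD than JR1 against 4 as reported. At a mean of at least 5 TPM, 0 members were lower in RD, since BMI1 left the table. At a limit of 1.5-fold, 3 members and 9 others were lower in RD, 1 member and 2 others were higher and 7 others lower in JR1, and 7 members were higher in RD than in JR1. Of all tested genes, 23.2% were lower in RD at that limit, and 5.31% were higher and 23.4% lower in JR1. Between the control libraries 20.4% of them were higher in RD. Keeping every gene above 0 TPM left these counts and the medians of the members as reported and put the median of the other Polycomb genes at -0.28 in RD and -0.021 in JR1, and BMI1 summed with its readthrough gene moved values of BMI1 but no call of it in RD. Centring and removal shift the medians by construction, and what else moved them was not tested. TPM keep no depth, so the precision of genes near 3 TPM, such as BMI1 and CBX8, is unknown, and with 1 library per group the spread between cultures cannot be given.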
